A study of Ciona robusta with 15 samples.

Results

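In whole embryos of the ascidian Ciona robusta, 122 of 15284 gene models were already transcribed in control embryos and had more reads in every group given the notochord factor Bra. They were chosen by these reads: a mean of at least 20 normalised reads in the controls, and a log2 difference of at least 0.7 (1.62-fold) from the same-numbered control in all 12 libraries given Bra. Bra (KH.S1404.1) and Foxa.a (KH.C11.313), which were electroporated, were left out by the rule. Of the 11626 gene models that met the control minimum, the 122 made up 1.05%. The difference from control is therefore how they were found, and its values are given as a description. The rule did not compare the 4 groups given Bra with one another, and these comparisons were tested. Its floor of 0.7 still applied to each of these libraries. Models that any 1 group brought back near the control level are therefore absent, which limits what the comparisons can show.

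Plasmids driven by the Etr enhancer, which is active in the developing nervous system, were electroporated into fertilised eggs, and RNA of 300 embryos per sample was sequenced at Hotta stage 19.5. Control embryos received a fluorescent reporter, Etr1>H2B-Venus in the sample labels and Etr>Venus in the series design text. The Bra group received Etr1>Venus-Bra, a second group received this plasmid with Etr1>Foxa.a-Myc, another received it with Etr1>Mnx-HA, and the last received all 3. These groups are called Bra, Bra+Foxa.a, Bra+Mnx and, for all 3 factors, Bra+Foxa.a+Mnx, with 3 libraries each. The sources used here do not give plasmid doses. The series text speaks of triple biological replicates without saying what separates them, so the p-values cover only the spread among these libraries. The RNA is of whole embryos, in which a gain of reads from more cells of a type and from more RNA per cell cannot be told apart.

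Bra is a T-box transcription factor that in normal ascidian embryos is transcribed in the notochord, the rod that stiffens the tadpole tail. It is required for notochord cells to form, and it switches on genes of their later shape changes, sheath and lumen. Foxa.a is a forkhead factor of the notochord, endoderm and floor plate lineages, and Mnx is a homeodomain factor. The series asks how the 3 act together in notochord fate.

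Genes appear in the files under KH identifiers without names, and no KH identifier is in the reference table. The 122 are therefore called by their identifiers, no function is given for them, and no sequence of them is shown. Of the identifiers, 95 begin with KH.C, 17 with KH.L and 10 with KH.S. Names are used only for the electroporated genes and a few cell type markers, and the pairing of those names with identifiers was not checked against an annotation.

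Libraries held 17689915 to 26460260 reads, and the 10 most abundant gene models took 9.16% to 10.04% of them. The electroporated genes were read as a check of the labels, with plasmid and endogenous reads counted together. Bra had 556 to 793 normalised reads in control, 798 to 1449 in Bra, 1090 to 1332 in Bra+Foxa.a, 1083 to 1279 in Bra+Mnx and 1454 to 1618 in Bra+Foxa.a+Mnx. Foxa.a was highest in both groups given it, where it averaged 12021 ± 400 and 13869 ± 940 (SD, n = 3), against 7219 ± 974 in Bra. It ran from 5304 to 5853 in control, 6531 to 8334 in Bra and 7698 to 9953 in Bra+Mnx. It thus also lay above every control library in the groups given Bra without the Foxa.a plasmid. Mnx averaged 1957 ± 860 and 2418 ± 330 in the groups given it, against 406 ± 41.1 in Bra. None of the electroporated genes or markers is among the 122. Of the markers, the sum of 8 neural models ran from 15141 to 18434 in control and from 6360 to 12731 in the libraries given Bra, without overlap. Celf3/4/5/6, the Etr gene, made up much of it (8429 to 10180 in control and 3196 to 6337 with Bra). In 5 of the 8 every library given Bra lay below every control. Pou4 and Islet overlapped, and Msx did not follow the sum (994 to 1819 in control and 793 to 1871 with Bra). The muscle regulator Mrf ran from 2299 to 2567 in control and from 1375 to 2455 with Bra. Tbx2/3, a T-box factor of the notochord, ran from 2178 to 2676 in control and from 2725 to 3903 with Bra. A sum of 3 cardiac models overlapped between control (5561 to 6706) and treated libraries (4778 to 6603). No marker was at 0 in any group, and their part in the results was not tested.

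The 122 gene models took a small share of the reads, and by the rule that chose them it was larger in embryos given Bra. In control libraries they held 0.173% to 0.219% of all reads. They held 0.527% to 0.656% in Bra, 0.704% to 0.803% in Bra+Foxa.a, 0.585% to 0.860% in Bra+Mnx and 0.638% to 0.798% in Bra+Foxa.a+Mnx. A single model, KH.C1.832, supplied part of this. Without it the share was 0.121% to 0.143% in control and 0.382% to 0.705% over the treated groups. The gap between control and treated libraries follows largely from the rule in both cases, so these shares are a description.

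Their control means spanned 20.6 to 13446 normalised reads. The quartiles were 40.0, 75.9 and 175.6. Most of the 122 thus rest on few reads: 74 had a control mean under 100, which is 60.7% of them against 18.9% of all models of at least 20. A further 37 lay between 100 and 1000, and 11 at 1000 or more. Counting error weighs more at such levels. The median SD of log2 reads within a group, pooled over control and treated groups, was 0.42 for the 122 and 0.22 for all models of at least 20. Whether the level of reads accounts for this gap was not tested. A log2(value + 1) scale also understates the change of models with few reads.

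Relative to control, the median over the 122 of the mean log2 difference was 1.84 in Bra and 2.10 in Bra+Foxa.a. It was 1.95 in Bra+Mnx and 1.79 with all 3 factors. Over all 11626 models of the same control minimum the medians were -0.02, -0.03, -0.01 and -0.01. Single models ranged from 0.94 to 6.23 in Bra, from 0.96 to 6.61 in Bra+Foxa.a, from 1.01 to 6.49 in Bra+Mnx and from 1.01 to 6.50 in Bra+Foxa.a+Mnx. A mean log2 difference of at least 2 was reached by 51, 71, 56 and 46 models in these groups. In all 4 groups at once, 118 models reached 1, 29 reached 2 and 7 reached 3. On a scale common to the 15 libraries, 110 of the 122 had every treated library above every control library. The rule favours this outcome, and no share over all models is given for it, so nothing is read from this count.

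**Figure D1:**
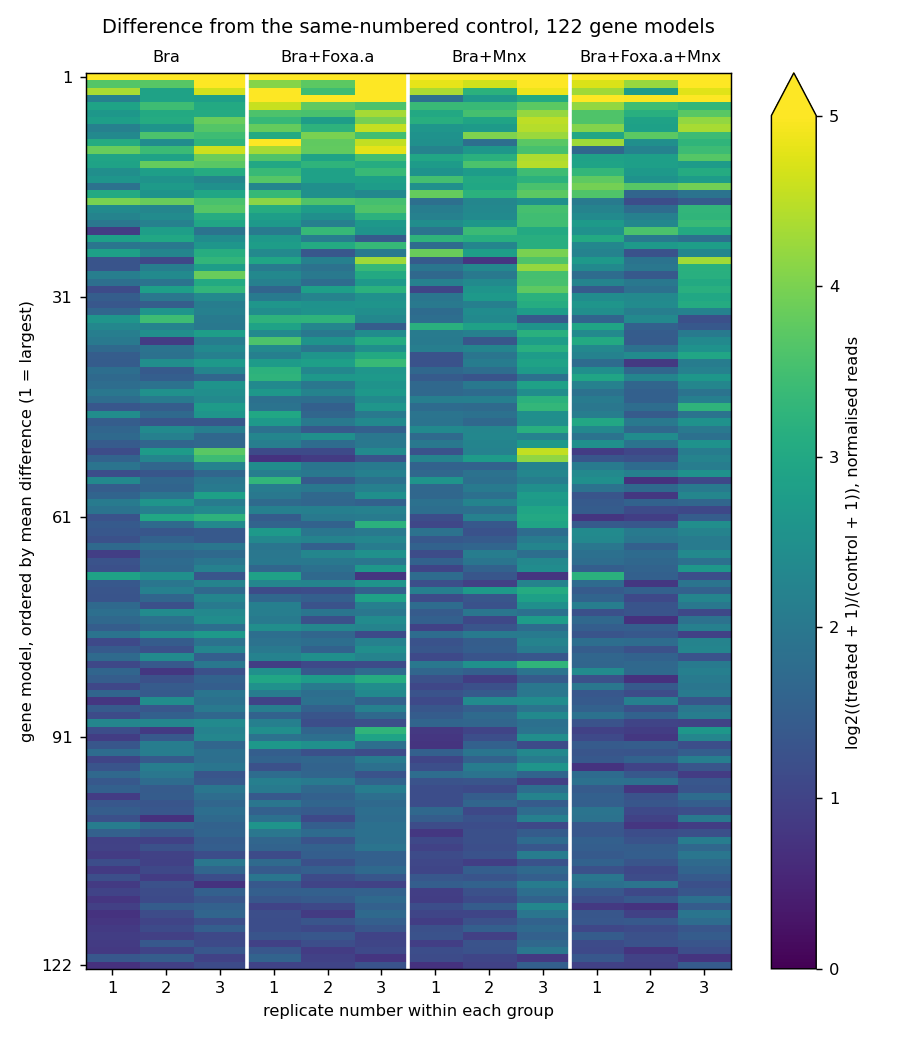
Log2 difference of each treated library from the same-numbered control for the 122 gene models, ordered from the largest mean difference to the smallest (rows), with the 3 replicates of each group given Bra as columns. Colours saturate at 5. All cells are at or above 0.7 because the rule required it, and in Bra+Mnx the column of replicate 1 is darker than that of replicate 3.

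Because the rule used these contrasts, nothing is read from how many of the 122 pass a test against control. With the groups in the order of the medians above, limma called 89, 112, 83 and 100 higher, against 1.42%, 3.7%, 1.47% and 2.82% of all genes tested. edgeR called 87, 111, 86 and 99, against 1.36%, 3.71%, 1.56% and 2.74%. With the replicate number as a block, limma called all 122 in each comparison, against 7.1%, 12.4%, 6.48% and 7.86% of all genes. In 113, 120, 114 and 120 models the 3 treated libraries lay above all 3 controls of their table, against 5.32%, 9.05%, 6.54% and 8.57% of the models of at least 20. The count in Bra fell to 27 without Bra replicate 3, to 39 without Bra replicate 2, and that in Bra+Mnx to 37 without Bra+Mnx replicate 2.

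The gap to control was not even over replicates. The median log2 difference was 1.51, 1.86 and 2.09 in replicates 1, 2 and 3 of Bra, and 1.65, 1.83 and 2.46 in those of Bra+Mnx. It was 2.15, 1.88 and 2.22 in Bra+Foxa.a, and 1.86, 1.54 and 2.08 in Bra+Foxa.a+Mnx. The lowest of a model's 3 differences came most often from replicate 1 in Bra (77 models) and in Bra+Mnx (85). In the groups given Foxa.a it came most often from replicate 2 (72 models in Bra+Foxa.a and 85 in Bra+Foxa.a+Mnx).

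KH.C11.709 had the largest mean difference. Its normalised reads in replicates 1 to 3 were 18.5, 27.3 and 25.4 in control and 1591, 1750 and 2218 in Bra. They were 2936, 1964 and 2357 in Bra+Foxa.a, 1755, 2010 and 3031 in Bra+Mnx, and 2462, 1648 and 2673 in Bra+Foxa.a+Mnx. Every treated library lay far above the controls, while the treated groups overlapped one another. The mean log2 differences were 6.23, 6.61, 6.49 and 6.50. For none of the 6 comparisons between treated groups did limma give a change past the threshold, and all 6 intervals (95%) lay within 1 log2 unit of 0. KH.C8.811 came next, with a mean over the 12 differences of 4.90. It had 28.2, 33.6 and 7.73 normalised reads in control, 369 to 526 in Bra, 459 to 493 in Bra+Foxa.a, 819.6 to 1192 in Bra+Mnx and 646 to 817 in Bra+Foxa.a+Mnx. The libraries given Mnx lay above those given Bra without Mnx, and the low control library of number 3 raised each difference of replicate 3.

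At the other end, KH.C2.667 had a mean difference of 1.06. It had 1675, 1296 and 1120 normalised reads in control, 2473 to 2759 in Bra, 2637 to 3363 in Bra+Foxa.a, 2576 to 3196 in Bra+Mnx and 2483 to 3260 in Bra+Foxa.a+Mnx. Its group means of the difference spanned only 0.18. KH.C12.154, at 1.10, varied more between replicate numbers than between groups. It had 10.6, 24.14 and 92.8 normalised reads in control, 28.8, 68.6 and 184 in Bra, 33.9, 47.9 and 159 in Bra+Foxa.a, 24.6, 51.3 and 166 in Bra+Mnx, and 28.7, 48.5 and 158 in Bra+Foxa.a+Mnx. Replicate 3 was highest in every group, and the highest control library lay above the treated libraries of numbers 1 and 2.

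KH.C1.832 and KH.L18.30 had the most control reads and so the least counting error. KH.C1.832 had 17558, 12744 and 11183 normalised reads in control, 25608 to 30494 in Bra, 31800 to 39777 in Bra+Foxa.a, 29962 to 33212 in Bra+Mnx and 33509 to 44914 in Bra+Foxa.a+Mnx. Its mean log2 differences were 1.00, 1.34, 1.24 and 1.504. KH.L18.30 had 2738, 3611 and 2859 in control, 8964 to 13199 in Bra, 10467 to 12306 in Bra+Foxa.a, 8186 to 13881 in Bra+Mnx and 10493 to 12061 in Bra+Foxa.a+Mnx. Its mean log2 differences were 1.85, 1.86, 1.82 and 1.87, the narrowest span of the 122 (0.04). The treated groups of KH.L18.30 overlapped, while the Bra libraries of KH.C1.832 lay below those of both groups given Foxa.a. Without the block no comparison between treated groups passed the test in either model. With it, KH.C1.832 was higher in Bra+Foxa.a+Mnx than in Bra (0.50 ± 0.16, SE, adjusted p = 0.285 without and 0.00244 with the block in limma).

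Near the lower control limit stood KH.L18.31 and KH.C8.820, both with a control mean of 20.6 in the table of Bra, just above KH.C9.488 (19.8) and KH.C11.605 (18.8), which were left out. KH.L18.31 had 11.5, 40.9 and 11.05 normalised reads in control, 104 to 226 in Bra, 279 to 571 in Bra+Foxa.a, 70.5 to 157 in Bra+Mnx and 115 to 243 in Bra+Foxa.a+Mnx. Its Bra+Foxa.a libraries lay above those of the other groups. KH.C8.820, with 28.2, 19.9 and 15.5 in control, had 93.9 to 192 over the treated libraries, which overlapped between groups. By the difference itself the nearest models inside were KH.C14.597 and KH.C5.351, both with a lowest value of 0.71 in Bra+Foxa.a+Mnx replicate 2. The nearest outside were KH.C8.696 (0.69) and KH.L18.22 (0.68), both in Bra+Mnx replicate 1.

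**Figure D2:**
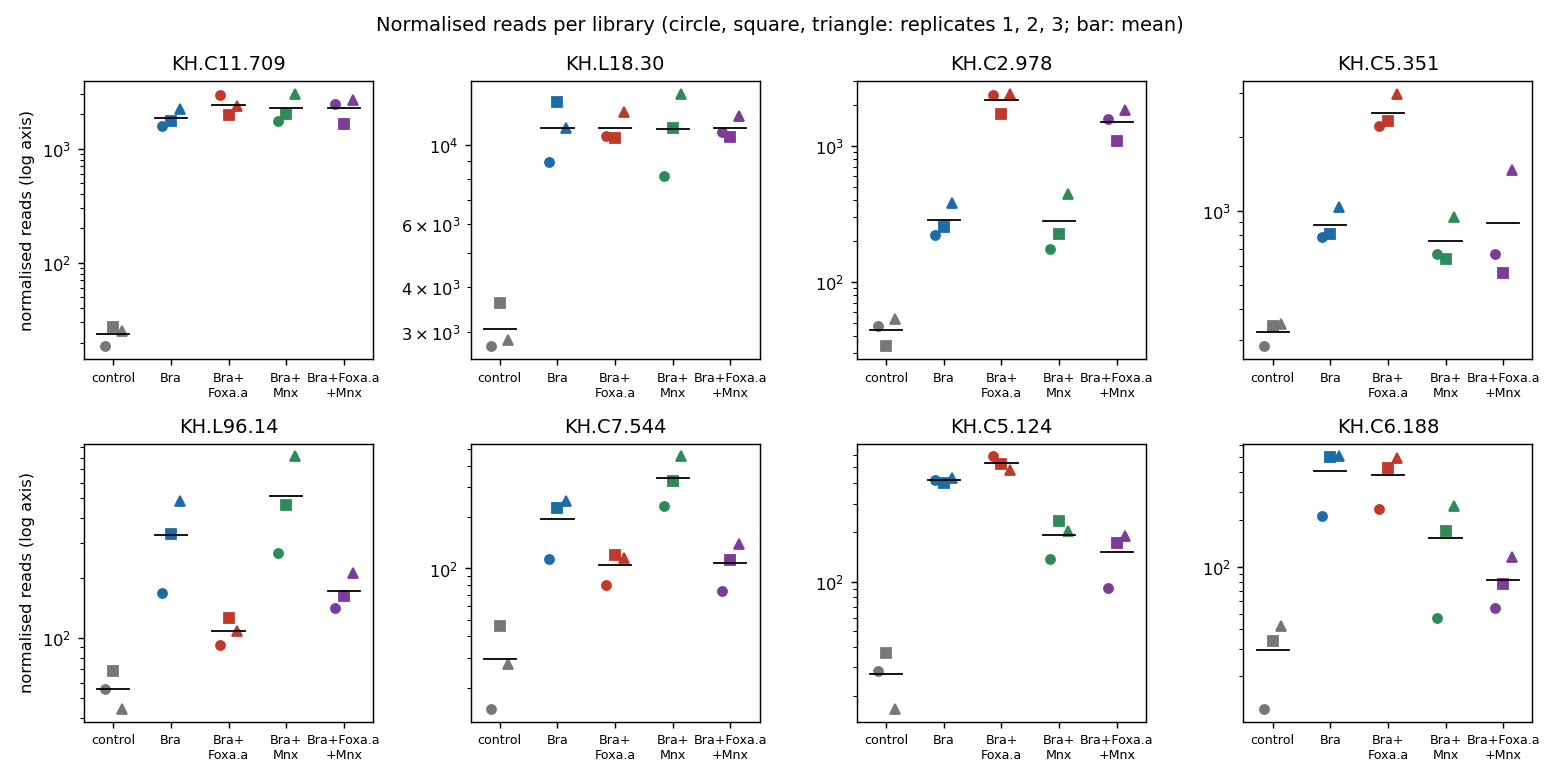
Normalised reads of 8 of the 122 gene models in each of the 15 libraries, on a log axis, by group; circles, squares and triangles are replicates 1, 2 and 3 and bars are group means. KH.C11.709 and KH.L18.30 overlap between the groups given Bra, KH.C2.978 is high in both groups given Foxa.a, and KH.C5.124 is lower in both groups given Mnx.

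The 4 groups given Bra differed from one another in some of the 122 and lay close together in others. The median span of the 4 group means of the log2 difference was 0.71, under 0.5 in 45 models, over 1 in 31, and at least 2 in 3 models, KH.C2.978, KH.C6.188 and KH.L96.14. By the group mean of normalised reads, not of the log2 difference, the highest fell in Bra+Foxa.a for 55 models, in Bra+Mnx for 39, in Bra+Foxa.a+Mnx for 17 and in Bra for 11. The lowest mean of normalised reads fell in Bra for 52, in Bra+Foxa.a+Mnx for 39, in Bra+Mnx for 20 and in Bra+Foxa.a for 11. These counts and those of the spans are a description, since no share over all genes is given for them. A single library can carry a mean of reads: the 122 held 0.860% of reads in Bra+Mnx replicate 3 and 0.585% in replicate 1. In 32 models (26.2%, against 66.4% of all genes tested) the 6 pairwise comparisons all had an interval within 1 log2 unit of 0. KH.C1.832, KH.C2.667, KH.C11.709 and KH.L18.30 were among them.

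Without a replicate term, limma called 7 of the 122 in at least 1 of the 7 comparisons tested (5.74%, against 1.22% of all genes). With the replicate number as a block it called 64 (52.5%, against 10.4% of all genes). Same-numbered libraries deviated together from their group means, so counts of calls are given both ways.

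Adding Foxa.a to Bra moved more of the 122 up than down. With the block, 27 were higher in Bra+Foxa.a than in Bra, against 2.29% of all 14260 genes tested, and 6 were lower, against 2.43%. Without it, limma called 2 higher (0.217% of all genes) and 0 lower (0.0771%), while 30 of the 122 had an unadjusted p under 0.05 (5.01% of all genes). edgeR called 2 in either direction (0.323%) and DESeq2 7 (1.18%). The median log2 fold change was 0.29 over the 122 and -0.01 over all genes, and 92 models lay above 0 (48.1% of all genes). By replicate number the median was 0.54, 0.10 and 0.13, and without Bra replicate 1 the fitted median was 0.14. In 64 models all 3 numbers lay above 0 (14.9% of all genes), and in 12 all 3 lay below (15.8%). The interval lay within 1 log2 unit of 0 in 56 models (72.1% of all genes).

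KH.C2.978 gained most from Foxa.a. It had 47.6, 33.6 and 53.0 normalised reads in control, 222, 256 and 384 in Bra, and 2365, 1717 and 2437 in Bra+Foxa.a. It had 176, 224 and 444 in Bra+Mnx and 1577, 1090 and 1845 in Bra+Foxa.a+Mnx. Both groups given Foxa.a lay above both groups without it, and no library of the one kind overlapped the other. Against Bra it rose by 2.94 ± 0.32 on the log2 scale (SE, limma, adjusted p = 0.00214) in Bra+Foxa.a and by 2.39 (adjusted p = 0.00360) in Bra+Foxa.a+Mnx. Against Bra+Mnx it rose by 3.04 in Bra+Foxa.a (limma, adjusted p = 8.54e-04) and by 2.50 in Bra+Foxa.a+Mnx (adjusted p = 0.0134). The last call was lost without Bra+Mnx replicate 2 or without replicate 1 or 3 of Bra+Foxa.a+Mnx, with a highest adjusted p of 0.116, and the first 3 held in each such fit.

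KH.C5.351 rose when Foxa.a was added to Bra and fell when Mnx was then added. It had 282, 341 and 348 normalised reads in control, 783, 806 and 1036 in Bra, and 2209, 2310 and 2985 in Bra+Foxa.a. It had 668, 641 and 945 in Bra+Mnx and 667, 559.7 and 1458 in Bra+Foxa.a+Mnx. The Bra+Foxa.a libraries lay above all others, and the Bra+Foxa.a+Mnx libraries overlapped those of Bra and Bra+Mnx. The log2 fold change was 1.51 ± 0.28 (SE) from Bra to Bra+Foxa.a (limma, adjusted p = 0.0401, and 2.31e-05 with the block). It was -1.60 from Bra+Foxa.a to Bra+Foxa.a+Mnx (adjusted p = 0.0408, and 7.81e-06 with the block). Bra+Foxa.a exceeded Bra+Mnx by 1.74 (adjusted p = 0.0124), while the effect of Foxa.a added to Bra+Mnx was 0.14 ± 0.28 with an interval (95%) from -0.46 to 0.75. Leaving out single libraries ended these calls in part. The first was lost without any one of the Bra or Bra+Foxa.a libraries or Bra+Mnx replicate 1 or 2 (adjusted p up to 0.232). The second was lost without the same 8 libraries or without replicate 1 or 2 of Bra+Foxa.a+Mnx (up to 0.249), and the third without Bra+Foxa.a replicate 3 or Bra+Mnx replicate 1 or 2 (up to 0.0847). The interaction of Foxa.a and Mnx, which tests the difference between the 2 effects of Foxa.a, was -1.37 ± 0.40 and did not pass the threshold (limma, unadjusted p = 0.00401, adjusted p = 1, and 0.0555 with the block).

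KH.L96.14 and KH.C7.544 went the other way. KH.L96.14 had 55.5, 68.2 and 44.2 normalised reads in control, 169, 333 and 485 in Bra and 266, 462 and 811 in Bra+Mnx, against 92.4, 126 and 109 in Bra+Foxa.a and 142, 162 and 212 in Bra+Foxa.a+Mnx. Within each replicate number the library given Foxa.a was the lower one. The log2 fold change was -1.47 ± 0.39 (SE) from Bra to Bra+Foxa.a (limma, adjusted p = 0.219, and 0.00214 with the block). From Bra+Mnx to Bra+Foxa.a+Mnx it was -1.45 (adjusted p = 0.538, and 0.00495 with the block). Bra+Foxa.a lay below Bra+Mnx by a log2 fold change of -2.09 (adjusted p = 0.0314), a call lost without any Bra+Foxa.a library, without replicate 2 of any other treated group, or without Bra+Mnx replicate 3 (up to 0.150).

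KH.C7.544 had 14.98, 46.2 and 27.6 normalised reads in control. It had 114, 227 and 248 in Bra, 80.0, 119.8 and 116 in Bra+Foxa.a, 233, 328 and 454 in Bra+Mnx, and 73.7, 111 and 139 in Bra+Foxa.a+Mnx. All Bra+Mnx libraries lay above all libraries given Foxa.a. The change with Foxa.a was -0.84 ± 0.40 in log2 (SE, adjusted p = 0.0131 with the block) when added to Bra and -1.63 (limma, adjusted p = 0.431, and 1.08e-04 with the block) when added to Bra+Mnx. limma called both with the block and neither without it.

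Adding Foxa.a to Bra+Mnx moved models both ways. With the block, 5 models were higher in Bra+Foxa.a+Mnx than in Bra+Mnx (1.06% of all genes) and 12 were lower (0.764%). Without it, limma called 1 higher, KH.C2.978 (0.105% of all genes), and 0 lower (0.021%), with 21 of the 122 at an unadjusted p under 0.05 (3.27%). edgeR called 1 (0.119%) and DESeq2 3 (0.315%). The median was -0.05, with 0.28 in replicate number 1 against -0.25 and -0.35 in numbers 2 and 3. It became 0.12 without Bra+Mnx replicate 3 and 0.01 without Bra+Foxa.a+Mnx replicate 2, and -0.28 without Bra+Mnx replicate 1 and -0.15 without Bra+Foxa.a+Mnx replicate 3. The interval lay within 1 log2 unit of 0 in 61 models (73.2% of all genes).

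The 2 comparisons that add Foxa.a share no library. Of the 27 models higher without Mnx, 4 (14.8%) were also higher with it, which is 80% of those 5. These were KH.C2.978, KH.C7.65, KH.C8.168 and KH.S391.1. Of the 6 lower without Mnx, 4 (66.7%) were lower with it, 33.3% of those 12, namely KH.C2.650, KH.C7.544, KH.L96.14 and KH.S908.2. No model was called in opposite directions. Over all genes, 99 of the 326 called higher without Mnx (30.4%) were higher with it, 65.6% of those 151, and 51 of the 347 called lower (14.7%) were lower with it, 46.8% of those 109. The 2 effects correlated at r = 0.80 across the 122 and 0.36 across all genes, and 63.9% and 59.5% had the same sign. This is a description over gene models that share libraries and replicate numbers.

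KH.C8.168 had 66.1, 105 and 126 normalised reads in control, 219, 297 and 399 in Bra, and 182, 260.4 and 460.2 in Bra+Mnx. It had 639.6, 668 and 823 in Bra+Foxa.a and 513, 510.0 and 789.9 in Bra+Foxa.a+Mnx. Libraries given Foxa.a lay above those given Bra or Bra+Mnx alone. The log2 fold change was 1.25 ± 0.33 (SE) without Mnx and 1.08 with it, and limma called both with the block and neither without it ( adjusted p = 4.11e-05 and 2.97e-04).

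**Figure D3:**
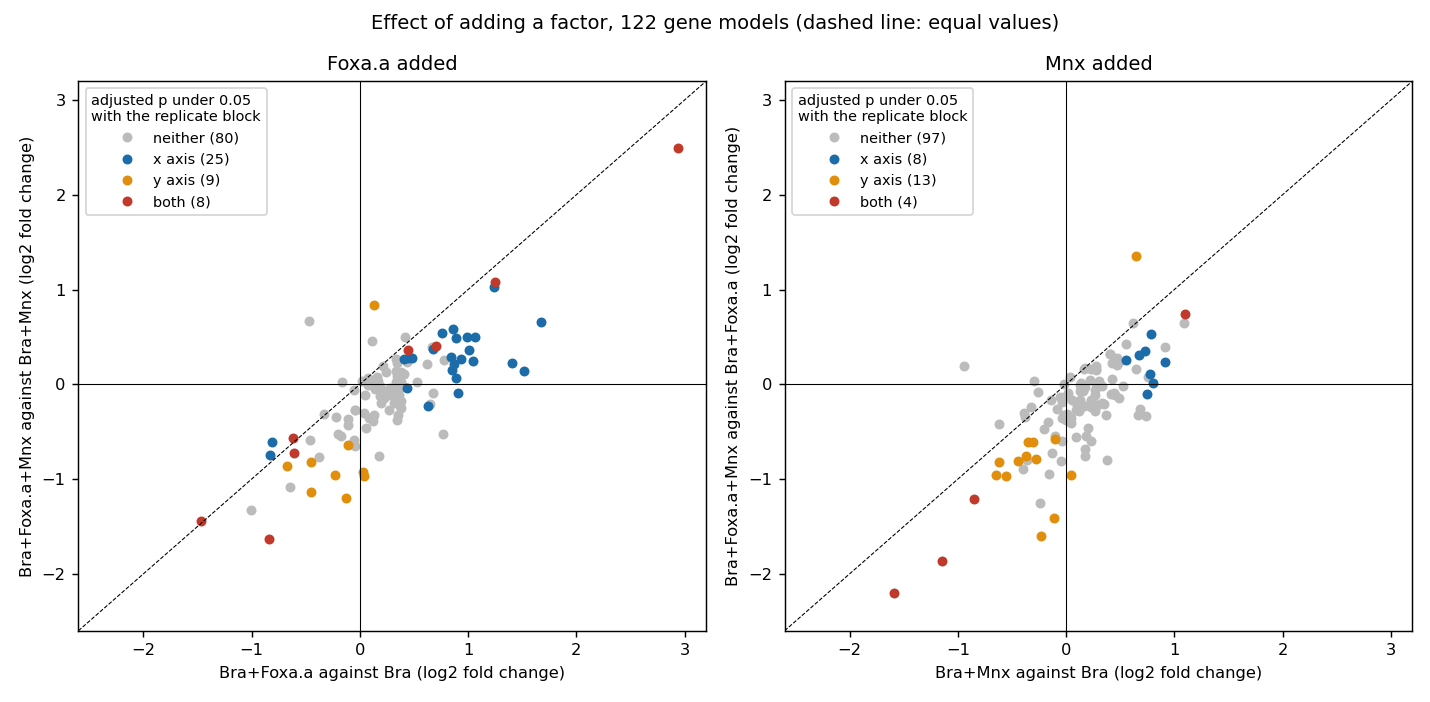
Log2 fold change on adding Foxa.a (left) or Mnx (right) for the 122 gene models, with the factor added to Bra on the x axis and added to Bra plus the other factor on the y axis; colours mark calls with the replicate block and the dashed line marks equal values. KH.C2.978 lies at the upper right of the left panel (2.94 and 2.50), and most models lie under the dashed line.

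Adding Mnx to Bra gave calls in both directions with the block, and in limma none without it. With the block, 9 were higher in Bra+Mnx than in Bra (0.491% of all genes) and 3 lower (0.835%). Without it limma called 0 in either direction (0.014% of all genes in each), with 16 of the 122 at an unadjusted p under 0.05 (2.92% of all genes). edgeR called 0 (0.0281%) and DESeq2 2 (0.258%). The median was 0.17 over the 122 and 0.00 over all genes, and 81 models lay above 0 (50.2% of all genes). It was 0.05, 0.01 and 0.41 by replicate number and became -0.03 without Bra+Mnx replicate 3, -0.01 without Bra replicate 1, 0.36 without Bra+Mnx replicate 1 and 0.26 without Bra replicate 3. In 50 models all 3 numbers lay above 0 (15.1% of all genes), and in 21 below (14.9%). The interval lay within 1 log2 unit of 0 in 61 models (73.5% of all genes).

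Added to Bra+Foxa.a, Mnx moved the 122 down more than up. With the block, 15 were lower in Bra+Foxa.a+Mnx than in Bra+Foxa.a (1.79% of all genes) and 2 higher (0.386%). Without it, limma called 2 lower, KH.C5.124 and KH.C5.351 (0.217% of all genes), and 0 higher (0.014%), with 18 at an unadjusted p under 0.05 (3.33%). edgeR called 1 (0.231%) and DESeq2 5 (0.632%). The median was -0.19 against 0.01 over all genes, with 86 models below 0 and 36 above it (54.2% of all genes lay above 0). All 3 replicate numbers had a negative median (-0.16, -0.26 and -0.11), and the fitted one was -0.11 without Bra+Foxa.a replicate 3. In 59 models all 3 numbers lay below 0 (14.1% of all genes), and in 21 above (15.4%). The interval lay within 1 log2 unit of 0 in 62 models (73.3% of all genes).

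KH.C5.124 and KH.C6.188 were lower with Mnx, whether or not Foxa.a was given. KH.C5.124 had 28.2, 36.7 and 16.6 normalised reads in control, 421, 400.3 and 431 in Bra and 585, 524 and 484 in Bra+Foxa.a. It had 137, 236 and 205 in Bra+Mnx and 91.7, 173 and 189 in Bra+Foxa.a+Mnx. The groups with and without Mnx did not overlap. From Bra to Bra+Mnx the log2 fold change was -1.15 ± 0.30 (SE, limma, adjusted p = 0.760, and 0.0239 with the block). From Bra to Bra+Foxa.a+Mnx it was -1.52 (adjusted p = 0.0350, and 5.43e-04 with the block), and from Bra+Foxa.a to Bra+Foxa.a+Mnx -1.87 (adjusted p = 0.0227, and 1.82e-04 with the block). The second call was lost without any Bra library, Bra+Foxa.a replicate 2 or any Bra+Foxa.a+Mnx library (up to 0.147). The third was lost without any Bra+Foxa.a library or replicate 1 or 2 of Bra+Foxa.a+Mnx (up to 0.142).

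KH.C6.188 had 12.3, 33.6 and 42.0 normalised reads in control, 212, 503 and 506 in Bra and 232, 426 and 496 in Bra+Foxa.a. It had 46.7, 169 and 243 in Bra+Mnx and 54.8, 77.5 and 116 in Bra+Foxa.a+Mnx. Replicate 1 was lowest in every group, and Bra+Mnx overlapped the groups without Mnx. The log2 fold change was -1.59 ± 0.59 (SE) from Bra to Bra+Mnx, -2.24 from Bra to Bra+Foxa.a+Mnx and -2.20 from Bra+Foxa.a to Bra+Foxa.a+Mnx. These were called with the block (limma, adjusted p = 5.34e-04, 2.99e-06 and 6.06e-06). None of them was called by limma without it (adjusted p = 0.124 and 0.341 for the last 2).

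Other models were called higher with Mnx by limma with the block. KH.S435.4 had 63.4, 80.8 and 69.6 normalised reads in control, 136, 214 and 284 in Bra and 119, 174 and 154 in Bra+Foxa.a. It had 257, 472 and 677 in Bra+Mnx and 198, 262 and 289 in Bra+Foxa.a+Mnx. Within each number the library with Mnx was the higher one. The log2 fold change with Mnx was 1.10 ± 0.32 (SE, limma, adjusted p = 0.978, and 0.00261 with the block) when added to Bra, and 0.74 when added to Bra+Foxa.a (0.0283 with the block).

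KH.L12.5 had 235, 266 and 330.3 in control, 879.6, 1767 and 1880 in Bra, 1143, 1494 and 2248 in Bra+Foxa.a, 1353, 2093 and 3925 in Bra+Mnx and 3663, 3445 and 5077 in Bra+Foxa.a+Mnx. The group given all 3 factors lay above every Bra and Bra+Foxa.a library. Its log2 fold change against Bra+Foxa.a was 1.35 ± 0.37 (SE, limma, adjusted p = 0.341, and 9.02e-05 with the block). KH.C11.28 had 28.2, 56.7 and 76.2 in control, 72.4, 262 and 249.8 in Bra, 63.9, 129 and 224 in Bra+Foxa.a, 131, 379 and 651 in Bra+Mnx and 78.6, 168 and 227 in Bra+Foxa.a+Mnx. The groups overlapped, and only the block called its change with Mnx (0.92 ± 0.66, SE of the limma fit without the block, adjusted p = 0.0124 with it).

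The 2 comparisons that add Mnx also share no library. Of the 9 models higher without Foxa.a, KH.S435.4 alone (11.1%) was higher with it, 50% of those 2. All 3 that were lower without Foxa.a (100%) were lower with it, 20% of those 15: KH.C5.124, KH.C6.188 and KH.C8.679. None was called in opposite directions. Over all genes, 18 of 70 called higher (25.7%) were shared, 32.7% of those 55 with Foxa.a, and 64 of 119 called lower (53.8%), 25.1% of those 255. The 2 effects correlated at r = 0.73 across the 122 and 0.29 across all genes, and 58.2% and 60.3% had the same sign. As for Foxa.a, this describes gene models that share libraries and replicate numbers.

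Between Bra+Foxa.a and Bra+Mnx the block gave 24 models higher with Foxa.a (3.02% of all genes) and 8 higher with Mnx (1.27%). Without it, limma called 3 higher with Foxa.a, KH.C2.978, KH.C5.351 and KH.L88.2 (0.365% of all genes), and 1 lower, KH.L96.14 (0.0701%). The interval lay within 1 log2 unit of 0 in 53 (72.2%). KH.L88.2 had 22.9, 18.9 and 23.2 normalised reads in control, 78.0, 106 and 67.5 in Bra, 110.1, 111 and 113 in Bra+Foxa.a, 51.0, 48.3 and 60.9 in Bra+Mnx and 74.5, 58.1 and 56.96 in Bra+Foxa.a+Mnx. Its Bra+Foxa.a libraries lay above all others, by a log2 fold change of 1.05 ± 0.21 (SE, limma, adjusted p = 0.0466) over Bra+Mnx. This call was lost without Bra replicate 1 or any one library of the other groups given Bra (up to 0.202). The median over the 122 was 0.12, but it was 0.54, 0.07 and -0.24 by replicate number and -0.06 without Bra+Mnx replicate 1 and 0.31 without Bra+Mnx replicate 3. No single direction thus held across numbers.

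When both factors were added to Bra, the 122 moved both ways. With the block, 20 were higher (2.55% of all genes) and 15 lower (3.96%). The interval lay within 1 log2 unit of 0 in 56 (71.4%). Without it, limma called 3 higher, KH.C2.978, KH.L128.2 and KH.S391.1 (0.386% of all genes), and 1 lower, KH.C5.124 (0.456%). The median was 0.08. It was -0.12 without Bra replicate 1 and -0.03 without Bra+Foxa.a+Mnx replicate 3, against 0.21 without Bra replicate 3 and 0.15 without Bra replicate 2. It was 0.12 without Bra+Foxa.a+Mnx replicate 1. KH.L128.2 had 24.7, 43.0 and 28.7 normalised reads in control, 70.6, 109 and 73.8 in Bra, 165, 178 and 153 in Bra+Foxa.a, 96.0, 141 and 163 in Bra+Mnx and 205, 178 and 173 in Bra+Foxa.a+Mnx. Its Bra libraries lay below all libraries given Foxa.a. It rose by 1.15 ± 0.25 on the log2 scale (SE, limma, adjusted p = 0.0497), a call lost without any one library of Bra, Bra+Foxa.a or Bra+Foxa.a+Mnx or Bra+Mnx replicate 2 (up to 0.213). KH.S391.1 had 419, 347 and 249 in control, 957, 885 and 787 in Bra, 1833, 1388 and 1134 in Bra+Foxa.a, 1336, 1286 and 1222 in Bra+Mnx and 2157, 1571 and 1452 in Bra+Foxa.a+Mnx. Its Bra libraries lay below those of the other groups given Bra, and it rose by 0.96 ± 0.20 (SE, limma, adjusted p = 0.0466). This call was lost without any one library given Bra except Bra+Foxa.a replicates 1 and 3 (up to 0.218). Bra reads themselves were higher in Bra+Foxa.a+Mnx than in Bra with the block (log2 fold change 0.57, limma, adjusted p = 0.00265, and 0.289 without it), and the part of this in the result was not tested.

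**Figure D4:**
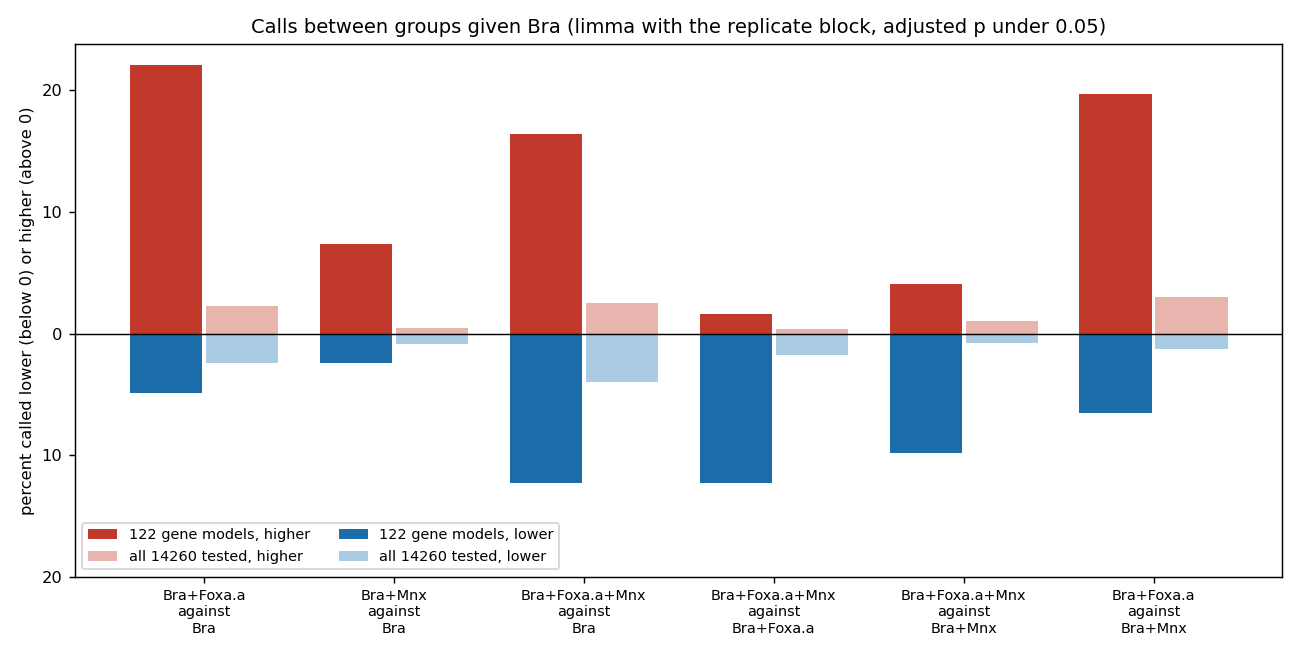
Percent of the 122 gene models (dark bars) and of all 14260 genes tested (light bars) called higher, above 0, or lower, below 0, in the 6 comparisons between groups given Bra, by limma with the replicate block. Bra+Foxa.a against Bra has the highest share called higher (27 of 122), and Bra+Foxa.a+Mnx against Bra+Foxa.a has more called lower (15) than higher (2).

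The combined effect of Foxa.a and Mnx on the 122 lay mostly below the sum of their separate effects on the log2 scale. This interaction, Bra+Foxa.a+Mnx minus Bra+Foxa.a minus Bra+Mnx plus Bra, had a median of -0.36 over the 122 and 0.01 over all genes. It was below 0 in 111 models and above 0 in 11, while 52.0% of all genes lay above 0. The median was -0.27, -0.32 and -0.46 within replicate numbers 1, 2 and 3, with 104, 95 and 108 models below 0. In 79 models (64.8%) all 3 numbers lay below 0, against 12.2% of all genes, and in 2 all 3 lay above 0, against 10.6%. Leaving out 1 library at a time gave medians from -0.57 (without Bra+Mnx replicate 1) to -0.13 (without Bra+Mnx replicate 3), with -0.17 without Bra replicate 1 and 86 to 117 models below 0. Over the 122, same-numbered libraries deviated together from their group means (r from 0.53 to 0.90). The models share libraries and replicate numbers, so these counts are a description and the models are not independent observations.

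No single model passed the interaction test. limma called 0 of the 122 with and without the block, edgeR 0 and DESeq2 0, against 0% of all genes in limma without the block and in edgeR, 0.00701% lower in limma with the block, and 0.00702% in DESeq2. Of the 122, 5 had an unadjusted p under 0.05, as did 162 of the 14260 genes (1.14%). KH.C5.351 had the most negative value, with -1.496, -1.71 and -0.90 in replicate numbers 1 to 3. KH.L12.5 was among the few above 0, at 0.71 ± 0.52 (SE). The interaction's standard error was larger than that of a single comparison, and its interval lay within 1 log2 unit of 0 in 28 of the 122 (62.9% of all genes).

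**Figure D5:**
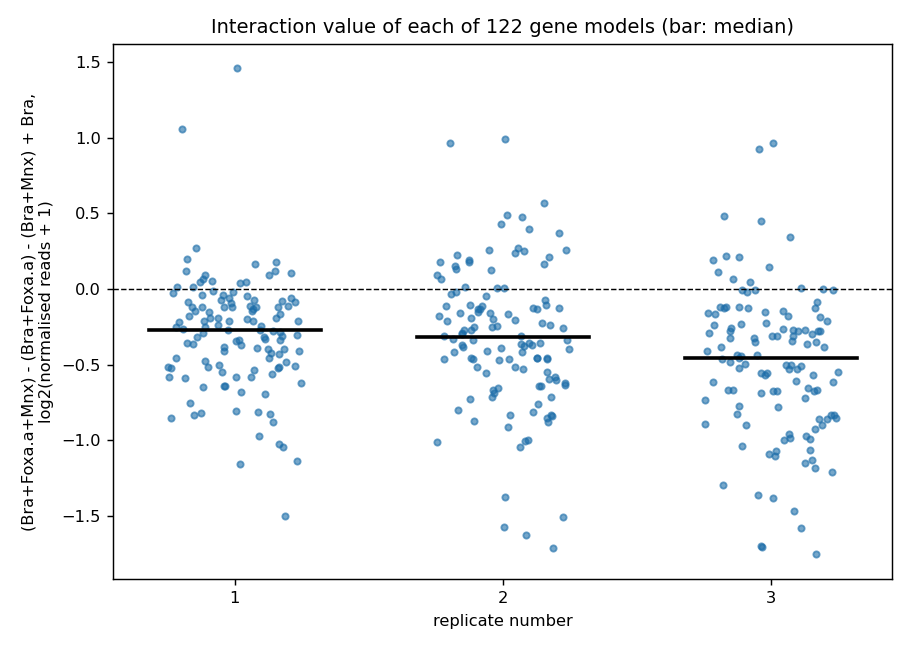
Interaction of Foxa.a and Mnx for the 122 gene models (points, spread sideways only to show them) within each replicate number, in log2(normalised reads + 1), with the median as a bar. The medians are -0.27, -0.32 and -0.46, and 104, 95 and 108 points lie below 0.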

How the data were processed

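RNA of 15 whole-embryo samples was sequenced. The authors deposited 4 tables, 1 per group given Bra, each repeating the 3 controls; per the file headers the values used are a signal, counts normalised to library size, and 24 columns of log values were not used. TopHat2 2.9.8b and DESeq 1.8.1 are named in the submitters' processing notes. The sources used here do not give the genome build, read counter, strand setting or treatment of shared reads, so overlapping and near-identical genes are uncertain. Each column consisted of whole multiples of 1 step; dividing by it gave whole numbers (tolerance 0.01) for 100% of values. Because the deposited unit is not counts, limma 3.58.1 (R 4.3.3, trend) on log2(value + 1) with Benjamini-Hochberg adjustment was used in place of a count test, at an adjusted p under 0.05 and a mean of at least 1. Comparisons with control were fitted within each table. Comparisons between treated groups used the recovered reads of all 15 libraries on 1 median-of-ratios scale, which is also that of the normalised reads printed. edgeR 4.0.16 and DESeq2 1.42.0 on recovered reads were alternatives. The fit without the block was also run on simulated counts that had no replicate-number effect. That run therefore does not cover the shared scatter of same-numbered libraries, and nothing is read from it.

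Replicate numbers come from the sample titles. Over 14260 genes, deviations from group means of 30 same-numbered pairs of libraries correlated at 0.55 to 0.72, so the numbers were taken to pair the samples. The 60 other pairs correlated at -0.44 to -0.12. Deviations from a group mean sum to 0, so a negative average there follows from the positive values and adds no support.

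The 122 models and all lists were chosen with earlier results of these data known. Models named are, per comparison, the 2 highest and 2 lowest log2 fold changes among calls (filled from the blocked fit), and those at the extremes of mean difference, control reads, group span and the rule's limits. KH.L88.2, KH.S391.1, KH.C7.65, KH.C2.650, KH.S908.2, KH.C8.679 and the pairs with consecutive identifiers were named after their values were seen.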

Additional observations from a re-analysis of the deposited data

How the results depend on the processing

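With the replicate block the number of the 122 called was 33 (Bra+Foxa.a against Bra), 12 (Bra+Mnx against Bra), 35 (Bra+Foxa.a+Mnx against Bra), 17 (Bra+Foxa.a+Mnx against Bra+Foxa.a), 17 (against Bra+Mnx) and 32 (Bra+Foxa.a against Bra+Mnx), in place of 2, 0, 4, 2, 1 and 4. DESeq2 gave 7, 2, 11, 5, 3 and 13. The fit of the 12 libraries given Bra gave 1 for Bra+Foxa.a against Bra and 1 for Bra+Foxa.a+Mnx against Bra+Foxa.a, edgeR gave 1 for the latter, and no filter on low values gave 2 for Bra+Foxa.a+Mnx against Bra. Leaving out 1 library at a time, the 6 counts ran from 1 to 2, 0 to 0, 1 to 5, 0 to 2, 0 to 1 and 1 to 4. The interaction stayed at 0 in all these fits, and its median ran from -0.57 to -0.13. In the same fits the medians of the 6 comparisons ran from 0.14 to 0.39, -0.03 to 0.36, -0.12 to 0.21, -0.24 to -0.11, -0.28 to 0.12 and -0.06 to 0.31, so 4 of them changed sign. Against control the counts ran from 27 to 95 in Bra, 94 to 105 in Bra+Foxa.a, 37 to 101 in Bra+Mnx and 77 to 92 in Bra+Foxa.a+Mnx. The rule itself found 73 models at a difference of at least 1, 81 at a control mean of at least 50 and 74 when all 36 differences between treated and control libraries had to pass (no replicate block), each a subset of the 122. A minimum of 0.5 gave 170, a pseudocount of 10 gave 106, 1 scale over all libraries gave 124, and leaving out a replicate number gave 127 to 157, of which 119 were among the 122 each time. The cause of these shifts was not tested, except where the rule fixes their direction. By construction a stricter limit admits fewer models and a looser one more, and a larger pseudocount shrinks each difference above 0. Leaving out a replicate number also requires fewer differences, which by itself can only admit more. The edgeR and leave-one-out counts against control, the rule without 1 group and the medians under each alternative were chosen after seeing the data. Most of the 122 have few control reads, and each group has 3 libraries. How far either limits the differences that can be shown was not tested.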

Other observations

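Among the 122, 3 pairs had consecutive identifiers: KH.C12.39 and KH.C12.40, KH.C4.71 and KH.C4.72, and KH.L18.30 and KH.L18.31. Their mean log2 differences from control were 1.52 and 1.66, 1.61 and 3.41, and 1.85 and 3.39. Whether neighbouring models share reads is not given in the sources used here. In the last pair the members differed between groups: KH.L18.30 spanned 0.04 in its 4 group means, and KH.L18.31 spanned 1.92, with a log2 fold change of 1.67 ± 0.51 (SE) from Bra to Bra+Foxa.a (limma, adjusted p = 0.340, and 0.00508 with the block).

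Beyond the 122, 859 gene models with a control mean of at least 20 had all 12 differences above 0 without reaching the limit in each. Dropping the requirement on 1 group widened the rule to 147 models without Bra, 136 without Bra+Foxa.a+Mnx, 133 without Bra+Mnx and 125 without Bra+Foxa.a.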
